A study of Saccharomyces cerevisiae with 24 samples.

Results

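The mitochondrial ribosome of Saccharomyces cerevisiae is built from proteins that are nearly all encoded in the nucleus, made in the cytosol and imported, and from ribosomal RNAs of the mitochondrial genome. It has a large subunit, the 54S particle, which joins amino acids, and a small subunit, the 37S particle, which reads the messenger RNA. In budding yeast it makes a small set of proteins, mostly core subunits of the respiratory chain and of ATP synthase, and yeast that ferments glucose can grow without it. Many of the nuclear messenger RNAs for mitochondrial translation are known to be bound by Puf3, a protein of the PUF family that recognises a short motif in the untranslated region after the stop codon and is known to promote their decay when glucose is plentiful.

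The genes described here were picked by a rule on names that uses no measured value. The group itself was chosen with earlier results of these data known. The rule takes every feature whose standard name is MRPL, MRPS, RSM or MRP followed by a number, without MRP8, and IMG1, IMG2 and YML6. The rule found 69 genes among the 7140 features of the files, and 69 of the 69 passed the filter on low counts, as did 6262 features in all. By the annotation, 41 encode proteins of the large subunit and 27 proteins of the small subunit, and RSM22 is annotated as a tRNA methyltransferase. The family names begin with u or b, for proteins that bacterial ribosomes share, in 43 genes, and with m, for proteins special to mitochondrial ribosomes, in 25. The genes lie on 14 chromosomes with at most 12 on one, chromosome IV, and 2 of them, MRPL44 and YML6, have a coding sequence annotated in 2 parts. MRPL19 shares 113 bases with YNL184C on the same strand, so its counts are uncertain. Among the names that the rule leaves out are 11 further proteins of the same particle, such as NAM9 and PET123, which are given below as a list of their own.

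Polyadenylated RNA was sequenced from yMH914, a MATa strain derived from S288C with a repaired HAP1 gene and the markers ura3D0, his3D200, leu2D0 and lys2-128d. Cells in air were sampled at 0 min, and cells under 100% nitrogen at 7 times from 5 to 240 min (with 10, 30, 60, 120 and 180 min between), in 3 biological courses, which gave 24 libraries of 4980240 to 16346113 counts. Per the study's methods the cultures were diluted in fresh flasks after the 0 min sample, so in any comparison with 0 min hypoxia and the dilution and handling cannot be told apart. All groups share 1 strain, and there is no library of cells diluted in air.

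Markers were checked against the labels. The disrupted genes URA3 and HIS3 never exceeded 2 counts per library, and LEU2 had 0 in each. ANB1, a hypoxic translation factor gene, went from 1.04, 5.46 and 7.03 CPM (counts scaled to the library size) at 0 min in courses 1, 2 and 3 to 687, 740 and 764 CPM at 240 min, and CYC1, which encodes cytochrome c, went from 160, 139 and 137 CPM to 3.57, 2.81 and 0.613 CPM. Course 1 stood apart from the other courses in all its libraries, and its files were also written in another form, without the counter's summary lines. Because of that, calls are given with all courses, with the course as a block and without course 1. Libraries of course 1 deviated together at every time, so the block takes up a difference that the fit without it counts as error.

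The genes shared the motif bound by Puf3, a feature the choice by name did not use. TGTANATA, searched on the coding strand of the 200 bases after the stop codon, occurred in 68 of the 69 genes (98.6%), in 41 of 41 large-subunit and 27 of 27 small-subunit genes, and RSM22 was the exception. Of all 5988 nuclear coding genes in the files, 843 (14.1%) had it. The 82 sites in these genes began 8 to 165 bases after the stop codon, with a median of 54.5 bases, and 75 of them began within 100 bases. The open position held A in 37 sites, T in 27, C in 17 and G in 1, and a C stood 2 bases before the motif in 54 sites. There was 1 site in 55 genes, 2 sites in 12 and 3 sites in 1. Sites are printed for 4 genes that had high values at 30 min (MRPL28, MRP17, MRP10 and MRPS8) and for 3 that had low values during hypoxia (MRP4, MRP1 and RSM28), since both kinds carry the same motif. Each is 30 bases of RefSeq sequence, build R64, on the coding strand, with the motif in capitals.

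MRPL28 first site: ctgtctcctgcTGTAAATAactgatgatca
MRPL28 second site: atataattataTGTACATAgacatataaag
MRP17: ctacaaacacaTGTAAATAcatacatatct
MRP10: agtcatggcctTGTATATAcaaattaaata
MRPS8: tatacggaccaTGTAAATAataatattata
MRP4: taacctaaactTGTACATAtgcccatatat
MRP1 first site: ttggtagtctcTGTAAATAtataaagtcaa
MRP1 second site: tattcgtaatgTGTATATAacgtggtctta
RSM28: tcttacataccTGTAAATAtctagtacgta

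The sites of MRPL28 lie at chrIV:1386537-1386566 and chrIV:1386593-1386622 on the plus strand, that of MRP17 at chrXI:437038-437067 on the minus strand and that of MRP10 at chrIV:372580-372609 on the plus strand. Those of MRPS8 (chrXIII:572761-572790), MRP4 (chrVIII:100429-100458), RSM28 (chrIV:1438036-1438065) and MRP1 (chrIV:1170183-1170212 and chrIV:1170215-1170244) lie on the plus strand. All of them follow the stop codon of their own gene. The ends of the transcripts were not measured here, so a site need not be in the messenger RNA of these cells.

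The motif was also common in genes for the other parts of mitochondrial translation. It occurred in 11 of the 11 further mitoribosomal protein genes, in 16 of 17 genes that charge mitochondrial tRNAs, in 7 of 9 genes for translation factors, in 13 of 17 for activators of single mitochondrial messenger RNAs and in 9 of 13 for assembly and anchoring of the particle. It occurred in 6 of 138 cytosolic ribosomal protein genes, 6 of 69 ribosome biogenesis genes and 2 of 24 respiratory chain genes, the last of which were COX8 and SDH1. Upstream, in the 250 bases before and 50 after the start codon, 3 motifs were searched on both strands. AAAAATTT, the core of an element common in ribosome biogenesis promoters, occurred in 6 of the 69 (8.70%) against 14.2% of all genes. GATGAG, the core of a second such element, occurred in 11 (15.9%) against 20.4%, and CCAAT, the core bound by the Hap complex, in 29 (42.0%) against 43.3%.

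**Figure D1:**
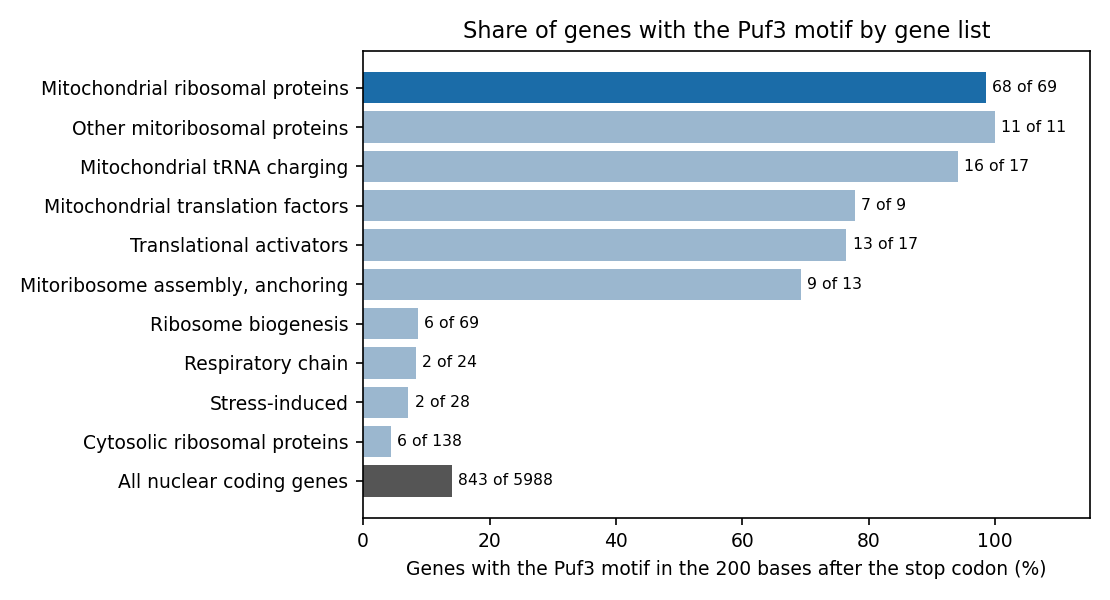
Horizontal bars show, for 10 gene lists and for all nuclear coding genes, the percent of genes with TGTANATA on the coding strand in the 200 bases after the stop codon, with the number of genes at each bar. The bar of the mitochondrial ribosomal proteins stands at 98.6% and that of all nuclear coding genes at 14.1%.

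The levels of the genes differed widely among themselves. Per kilobase of coding sequence the mean over 24 libraries reached 286 CPM in the highest gene and had a median of 64.1 CPM over the 69, against a median of 45.3 CPM over all tested coding genes. Without the division by length the order was reversed, with medians of 45.3 CPM over the 69 and 52.6 CPM over all tested genes. The coding sequences had a median of 699 bases in the 69 and 1218 bases in all. MRPS18, the uS11m protein, was highest with 210 to 498 CPM per kb over the libraries and a median of 271 CPM per kb. RSM18 (bS18m) followed with 208 to 367 CPM per kb and a median of 270 CPM per kb, and RSM10 (uS10m) with 185 to 434 CPM per kb and a median of 261 CPM per kb. These 3 small-subunit genes overlapped over most of their ranges and cannot be ordered. The lowest were MRP35 (bL35m) with 0.448 to 32.2 CPM per kb, MRPL1 (uL1m) with 6.39 to 26.5 CPM per kb and MRPL15 (mL57) with 6.83 to 45.1 CPM per kb, which overlapped likewise. The medians of the subunits were 64.2 CPM per kb for the large and 59.5 CPM per kb for the small one.

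Together the 69 genes took 0.375% to 0.529% of the counts of a library in course 1. That share was 0.234% to 0.373% in the libraries of course 2, and for course 3 it was 0.249% to 0.378%. Over the courses the share was 0.302% ± 0.065 at 0 min, 0.427% ± 0.089 at 30 min and 0.354% ± 0.083 at 240 min (SD, n = 3 each). The ranges of the times overlap because course 1 lay higher throughout. The level in course 1 exceeded that in courses 2 and 3 by a median of 0.57 on the log2 scale over the 69 genes, and by 0.07 over all tested genes, and 54 of the 69 were higher there.

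A pair of genes, named after their values were seen, departed far from that. MRPL38, which encodes the uL14m protein, had 1.18 to 4.45 CPM in the 8 libraries of course 1 and 33.6 to 67.6 CPM in the 16 libraries of courses 2 and 3. MRPL44, the mL53 protein, went the other way, with 26.3 to 32.6 CPM in course 1 and 0.804 to 8.26 CPM in the others. The groups did not overlap in either gene, and the cause was not tested. The fitted change of MRPL38 is therefore quoted only from the fit that includes the course, and none is quoted for MRPL44. Both genes remain in the medians, counts and figures of the fit without the course.

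Few of these genes passed at the fitted times when the course was left out of the fit. In the fit without the course, 0 of the 69 passed an adjusted p under 0.05 with at least a 2-fold change over all times (edgeR quasi-likelihood test, Benjamini-Hochberg over 6262 genes), where 19.8% of all tested genes did. At an unadjusted p under 0.05 there were 2, and DESeq2 called 1, RSM28, where it called 21.3% of all genes. For counts at an unadjusted p, here and below, no share of all genes is given. That share is at least the one at an adjusted p under 0.05 in the same fit. Without the fold minimum 1 passed over time, MRP4, against 26.5% of all genes, and that call was lost on the total count (adjusted p = 0.21 by edgeR) and with no filter on low counts (0.066). From its lowest to its highest time the mean level spanned 0.65 on the log2 scale in the median gene, against 0.94 in the median of all tested genes, and it spanned at least 1 in 7 of the 69 (10.1%) against 46.6%. The widest ranges were in MRP35, MRP10 and MRP17, and the narrowest in MRP20 (uL23m, at the tunnel exit), with 0.27, RSM25 (mS23), with 0.34, and IMG1 (bL19m), with 0.36. MRP20 stayed between 62.8 and 97.9 CPM in all 24 libraries.

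**Figure D2:**
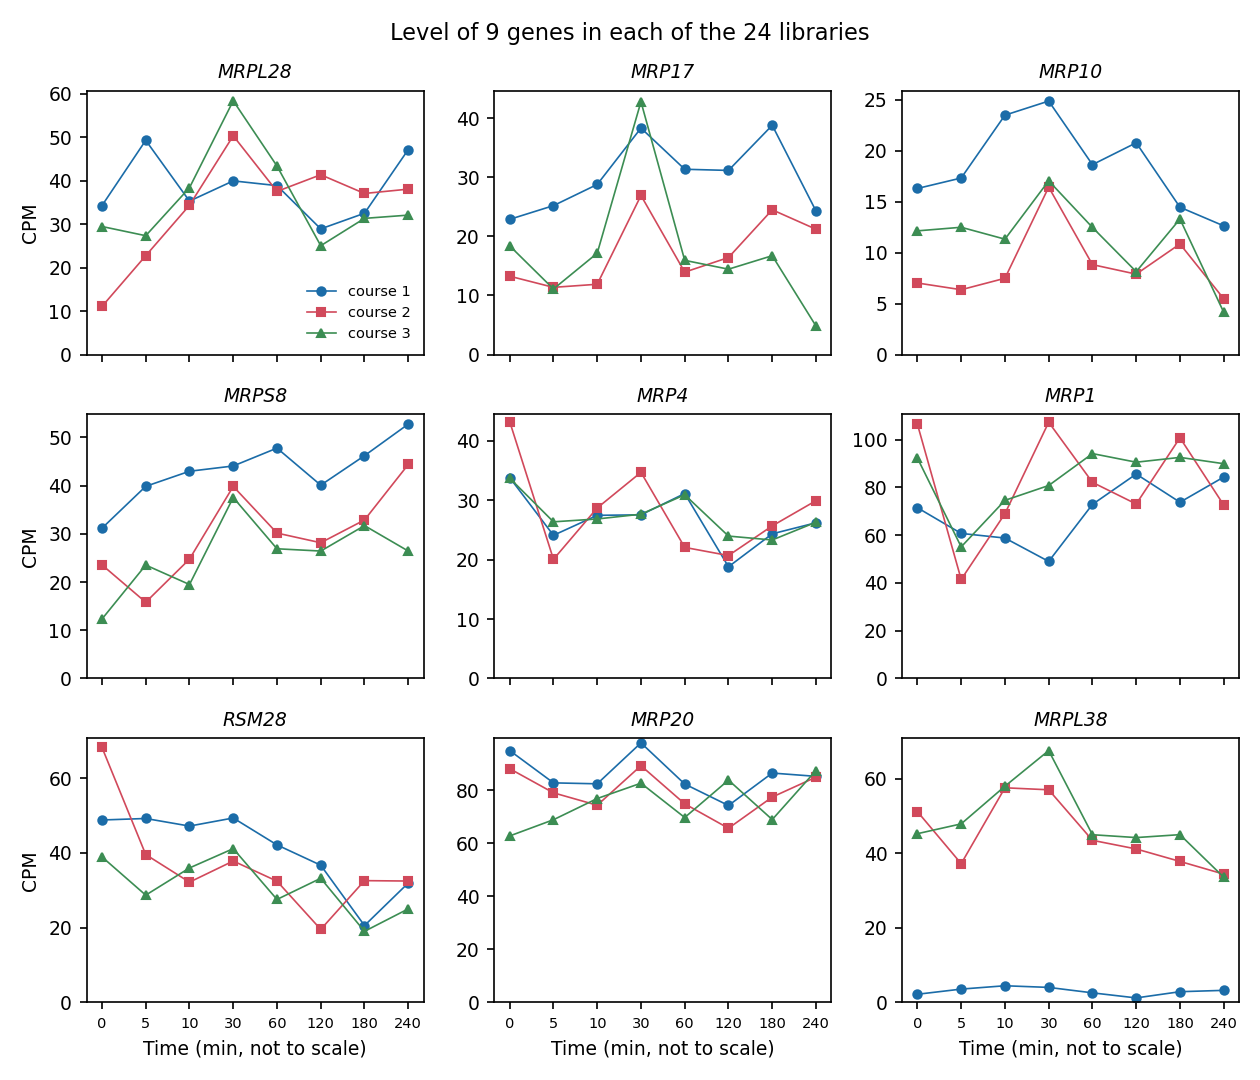
Each panel plots the CPM of 1 gene in all 24 libraries against the time in hypoxia in min, with 1 line and symbol for each of the 3 courses and a vertical axis that starts at 0. MRP17 and MRP10 have high points at 30 min, MRPL28 has them there in courses 2 and 3, MRPS8 lies above its 0 min level at 30 min and at 240 min in each course, MRP4, MRP1 and RSM28 have low points after 0 min, MRP20 stays between 62.8 and 97.9 CPM, and MRPL38 is at most at 4.45 CPM throughout course 1.

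With the course as a block the same comparison found more. Over time 20 of the 69 had an adjusted p under 0.05 (29.0%), where 54.9% of all tested genes did, and 2, RSM28 and MRP17, also changed at least 2-fold, where 29.2% did. Without course 1 the fit with the block gave 21, of which 9 were among those 20, where 55.2% of all genes passed, and without course 2 or course 3 it gave 3 and 2, where 30.2% and 39.2% of all genes passed. The fit without the block on courses 2 and 3 gave 19, where 53.8% passed, and 8 with at least a 2-fold change, where 35.1% did. Those 8 were IMG2, MRPL28, MRPL4, MRPL8, MRPS8, MRPS12 and MRPS16, with a high value during hypoxia, and MRPL9 with a low one. Per its methods the study used 1 replicate of the time course for RNA-seq. It called genes by a quadratic in time fitted with DESeq2 or by a permutation test of autocorrelation. Here only the quadratic was run, on each course alone. Only genes with at least a 2-fold range of scaled counts, set to at least 20, could be called, and p was adjusted over those. In courses 1, 2 and 3, 18.8%, 50.7% and 39.1% of the 69 had that range, against 42.8%, 45.3% and 53.2% of all genes. The quadratic called 2 of the 69 in course 1, MRPL32 and RSM28, and 0 in courses 2 and 3, where 10.5%, 8.86% and 7.44% of all genes were called.

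At 5 min the median of the genes was lower than in air in courses 2 and 3 but not in course 1. The median log2 fold change from 0 min was -0.15 over the 69 genes and -0.05 over all tested genes, and 22 of the 69 lay above 0. Scaled by the total count, these medians were -0.02 and 0.08. By course the median log2 ratio was 0.06 in course 1, and in courses 2 and 3 it was -0.52 and -0.24. All courses were lower in 18 of the 69 and higher in 7, where 26.9% and 20.7% of all genes were, and the groups did not overlap in 5, all lower, where 18.9% of all genes did not. MRP4 and MRP1 fell, and 67 did not pass an adjusted p under 0.05, which 8.80% of all genes passed. No gene of the 69 was called at 2-fold, where 5.92% of all genes were, and 5 had an unadjusted p under 0.05. DESeq2 called 0 at 2-fold, where 6.31% were, and MRP1 and MRP4 without that minimum, where 10.6% were.

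MRP4 encodes uS2m of the small subunit. It had 33.8, 43.2 and 33.7 CPM at 0 min in courses 1, 2 and 3, and 24.1, 20.1 and 26.4 CPM at 5 min, so the groups did not overlap. It fell by 0.65 on the log2 scale (SE 0.18, adjusted p = 0.026 by edgeR), and over all times its adjusted p was 0.040. At 5 min its adjusted p was 0.15 on the total count. The gene shares 2 bases with a feature on the other strand, YHL005C.

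MRP1 encodes mS43, a small-subunit protein related to manganese superoxide dismutase. It had 71.5, 106 and 92.3 CPM at 0 min and 60.7, 41.5 and 55.1 CPM at 5 min, again without overlap, and fell by 0.78 on the log2 scale (SE 0.23, adjusted p = 0.039 by edgeR). The call was lost on the total count (adjusted p = 0.068) and with no filter (0.051). In courses 2 and 3 it stood at 107 and 80.8 CPM by 30 min, while course 1 was at 49.0 CPM. Its relative RSM26 (mS42) had a log2 fold change of -0.34 (SE 0.34, adjusted p = 0.79 by edgeR) at 5 min. MRPL9, the uL3m protein, had the lowest value of the 69, -0.87 (SE 0.55, adjusted p = 0.49), with 10.1, 35.3 and 36.5 CPM at 0 min and 12.7, 18.7 and 13.4 CPM at 5 min. Without course 1 it was the 1 gene called at 2-fold, where 13.2% of all genes were, and 9 passed without that minimum, where 26.3% did. The highest values, those of MRPL28, MRPL4 (uL29m) and IMG2, were 0.41 each (adjusted p = 0.66, 0.70 and 0.74 by edgeR). With the block 6 genes passed at 5 min, where 21.6% of all genes did. MRP1, MRP4, MRP51, MRPL35, MRPL50 and MRPL6 fell, where 12.4% of all genes fell, and 0 rose, where 9.20% did. Without course 1 the fit with the block gave 11, where 27.6% passed, and 4 of these were among the 6.

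At 30 min the median of the genes was higher than in air in every course. The median log2 fold change was 0.29 over the 69 genes and 0.01 over all tested genes, with 49 of the 69 above 0. The median log2 ratio was 0.24, 0.26 and 0.22 in courses 1, 2 and 3. In 32 of the 69 (46.4%) all courses were higher at 30 min than at 0 min, where 28.9% of all tested genes were, and in 2 all were lower, where 30.1% of all genes were. The 3 libraries at 30 min lay above all 3 at 0 min in 9 genes and below in 0, where the groups did not overlap in 34.0% of all genes. In 38 of the 69 the mean level was highest at 30 min, as in 18.8% of all genes, and it was lowest there in 0, against 19.7%. Within courses 1, 2 and 3, the highest of the 8 libraries was that of 30 min in 21, 40 and 29 genes. For single courses the share of all genes is not given.

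Few single genes passed the test when the course was left out of the fit. In the fit without the course MRPL28 was the 1 gene that had an adjusted p under 0.05, where 25.7% of all genes did, 0 also changed at least 2-fold, where 17.8% did, and 9 had an unadjusted p under 0.05. DESeq2 called MRPL28 at 2-fold, where it called 17.6% of all genes. With the block 16 of the 69 passed, where 45.4% of all genes did. All 16 rose and 0 fell, where 21.2% of all genes rose and 24.2% fell, and MRPL28 and MRP17 rose at least 2-fold, where 21.8% of all genes changed as much. The 16 were 8 large-subunit genes (MRP49, MRPL8, MRPL22, MRPL24, MRPL25, MRPL27, MRPL28 and MRPL51) and 8 small-subunit genes (MRP10, MRP17, MRPS8, MRPS12, MRPS16, MRPS18, RSM10 and RSM18). MRPL51 shares 323 bases with YPR099C on the other strand, and strand was not stated for the counting, so its counts are uncertain. Without course 1 the fit with the block gave 20, all higher, where 47.6% of all genes passed, and 13 of these were among the 16. Without course 2 or course 3 it gave 7 and 10, also all higher, where 31.0% and 34.6% of all genes passed. The fit without the block on courses 2 and 3 gave 20, all higher, where 47.0% passed. Of these 9 rose at least 2-fold, where 26.8% of all genes were called: IMG2, MRP17, MRP35, MRPL28, MRPL4, MRPL8, MRPS8, MRPS12 and MRPS16.

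MRPL28 encodes mL40, a large-subunit protein special to mitochondria. It had 34.3, 11.1 and 29.5 CPM at 0 min and 40.0, 50.3 and 58.4 CPM at 30 min, so every value at 30 min was above every value at 0 min, and it rose by 0.99 on the log2 scale (SE 0.33, adjusted p = 0.032 by edgeR; with the block 1.01, SE 0.30, adjusted p = 0.0081). Course 2 had the lowest value at 0 min. MRPL28, MRP4, MRP1 and RSM28 were the 4 genes that passed in some comparison in the fit without the course. With course 2 left out of that fit 0 of the 69 passed by edgeR over time and at 5, 30 and 240 min, where 5.54%, 0.0633%, 11.1% and 6.16% of all genes passed, and 0, 0, 2 and 0 had an unadjusted p under 0.05. With course 3 left out 0 passed likewise, where 7.83%, 0.540%, 11.7% and 9.28% of all genes passed, and 0, 1, 0 and 1 had an unadjusted p under 0.05. Without course 1 MRPL28, MRP1 and RSM28 passed again in the same comparisons and MRP4 did not.

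MRP17, the bS6m protein, had 22.9, 13.3 and 18.4 CPM at 0 min and 38.3, 26.9 and 42.8 CPM at 30 min, without overlap. Its log2 fold change was 0.98 (SE 0.53, adjusted p = 0.20 by edgeR), and with the block 1.03 (SE 0.35, adjusted p = 0.019). MRPS8, uS8m of the small subunit, had 31.2, 23.6 and 12.3 CPM at 0 min and 44.1, 39.8 and 37.5 CPM at 30 min, a log2 fold change of 0.86 (SE 0.39, adjusted p = 0.12) and with the block of 0.94 (SE 0.22, adjusted p = 0.0013). MRPS12, the uS12m protein of the decoding centre, had 75.7, 38.2 and 39.1 CPM at 0 min and 86.7, 79.1 and 72.6 CPM at 30 min, and with the block a log2 fold change of 0.71 (SE 0.18, adjusted p = 0.0020 by edgeR). RSM10, one of the most abundant, had 167, 154 and 151 CPM at 0 min and 265, 185 and 225 CPM at 30 min, with the block a log2 fold change of 0.50 (SE 0.12, adjusted p = 0.0020 by edgeR).

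The largest fitted value at 30 min was that of MRP35, 1.18 (SE 0.95, adjusted p = 0.44 by edgeR), and it rests on few reads. Its CPM was 7.44, 0.156 and 2.50 at 0 min and 10.6, 6.32 and 6.20 at 30 min, and the value of course 2 at 0 min is 1 read. The lowest were MRP4 with -0.30, RSM28 with -0.28 and MRPL50 (bL9m) with -0.24, and none of these passed (edgeR adjusted p = 0.26, 0.57 and 0.80).

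The scale of the values matters at this time. TMM normalization, used here, assumes that most genes do not change, while dividing by the total count moved the median of all tested genes at 30 min by 0.23 on the log2 scale, at 5 min by 0.12, at 60 min by 0.29, at 240 min by 0.26 and between 30 and 240 min by 0.03. On the total count the 69 genes had a median of 0.50 at 30 min against 0.25 over all genes. On both scales the 69 thus had a higher median than all genes.

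**Figure D3:**
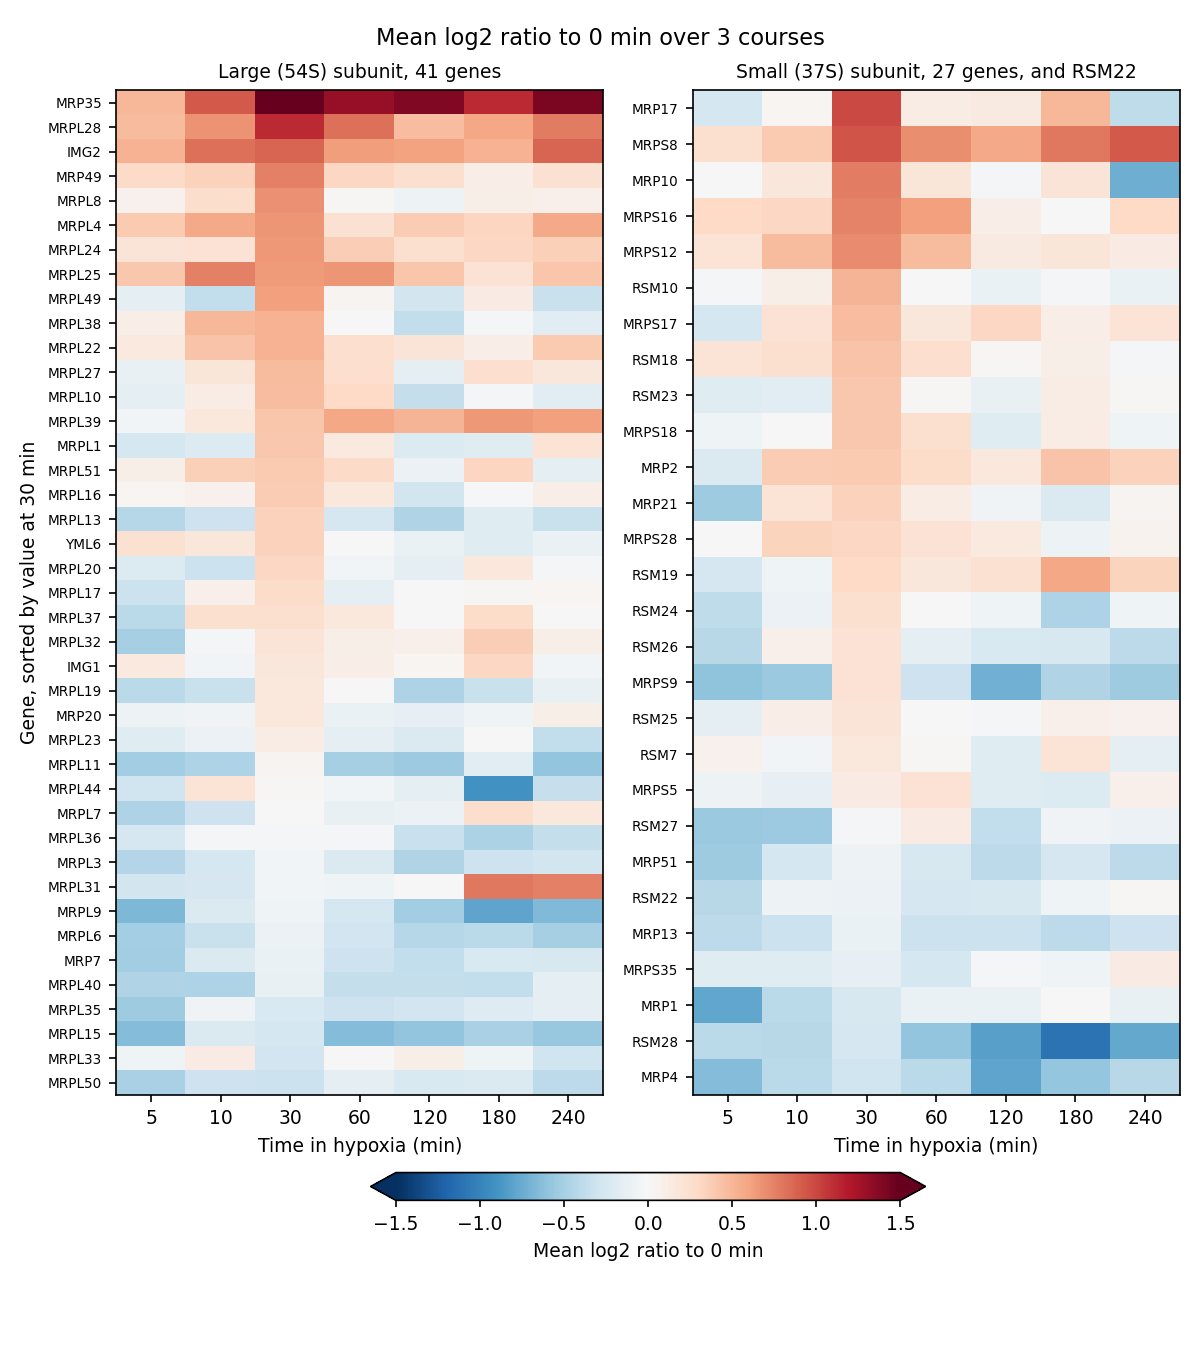
Colour gives the mean over 3 courses of the log2 ratio of CPM to 0 min, with a prior count of 2, for each gene (rows, sorted by the value at 30 min) and time in min (columns), for the 41 large-subunit genes at the left and the 27 small-subunit genes with RSM22 at the right. Most rows are red at 30 min, 7 of the 483 mean ratios pass 2-fold, and those are of MRP35, MRPL28 and RSM28.

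By 60 min the median of the genes was close to that in air on the TMM scale. The median log2 fold change was 0.03 over the 69 genes and -0.01 over all genes, and on the total count 0.35 and 0.28. All courses were higher in 13 of the 69 and lower in 6, where 29.3% and 29.5% of all genes were, and the groups did not overlap in 4, where 29.5% of all genes did not. In the fit without the course 0 of the 69 passed an adjusted p under 0.05 by edgeR, where 17.6% of all genes did, and 0 by DESeq2, where 19.6% did, and 2 had an unadjusted p under 0.05. At 2-fold 0 were called by either tool, where edgeR called 11.6% of all genes and DESeq2 11.7%. The highest values were those of MRPL28, MRPL25 (mL59) and MRPS8, 0.67, 0.65 and 0.64, and the lowest those of RSM28, MRPL11 (uL10m) and MRP4, -0.61, -0.42 and -0.40. None of these passed. With the block MRPL25, MRPL39, MRPS12, MRPS16 and MRPS8 rose and RSM28 fell, 6 of 69, where 36.2% of all genes passed, 15.4% higher and 20.8% lower. Without course 1, 3 were called at 2-fold, MRPL28 and IMG2 higher and MRPL15 lower, where 19.3% of all genes were. Without that minimum 5 passed, where 37.3% did, and with the block 8, where 38.3% did, of which 2 were among the 6.

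The times between were not fitted as comparisons of their own, and their values are given as a description. At 10 min all courses were higher in 15 of the 69 and lower in 11, where 26.1% and 29.3% of all genes were, and the groups did not overlap in 5, where 27.0% of all genes did not. At 120 min 6 were higher and 20 lower in all courses, where 24.3% and 29.4% of all genes were, and 6 did not overlap, all lower, where 27.1% did not. At 180 min 7 were higher and 14 lower, where 26.0% and 31.0% of all genes were, and 7 did not overlap, where 30.5% did not. The median log2 ratio at 120 min was 0.01 in course 1, with -0.25 and -0.18 in the others.

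After 240 min the median of the genes was close to that in air on the TMM scale. The median log2 fold change was -0.04 over the 69 and -0.02 over all genes, and on the total count it was 0.24, where that of all genes was also 0.24. Individual genes lay between -0.80 and 0.89. All courses were higher in 12 of the 69 and lower in 16, where 28.8% and 32.1% of all genes were, and the groups did not overlap in 5, where 35.0% of all genes did not. For 33 of the 69 the 95% interval lay inside a 2-fold change in both directions, and with the block for 55, against 31.3% and 47.5% of all tested genes. For the others the data do not bound the change at 2-fold.

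RSM28 fell by 240 min. This gene encodes mS46, a small-subunit protein special to mitochondria. It had 48.8, 68.2 and 38.9 CPM at 0 min and 31.9, 32.4 and 25.0 CPM at 240 min, without overlap, and 20.5, 32.6 and 19.0 CPM at 180 min. The log2 fold change at 240 min was -0.80 (SE 0.29, adjusted p = 0.049 by edgeR; with the block SE 0.24 and adjusted p = 0.0098). The call of the fit without the course was lost with RLE factors (adjusted p = 0.061), with no filter (0.062) and on the total count, where the fold change was -0.53 (adjusted p = 0.32). It was the 1 gene of the 69 past an adjusted p under 0.05, where 23.2% of all genes were. At 2-fold 0 were called by either tool, where edgeR called 15.6% of all genes and DESeq2 15.5%, and 3 had an unadjusted p under 0.05. The next lowest values were those of MRPL9 and MRP10, -0.70 and -0.67, and neither passed.

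With the block 8 genes passed at 240 min, where 43.5% of all genes did. MRPL22, MRPL39 and MRPS8 rose, where 19.7% of all genes rose, and MRPL11, MRPL23, MRPL36, MRPL6 and RSM28 fell, where 23.8% did. With the block and a 2-fold minimum 0 were called at 5, 60 and 240 min, where edgeR called 8.21%, 15.0% and 19.7% of all genes, and 17, 11 and 17 had an unadjusted p under 0.05. MRPS8 had 52.8, 44.4 and 26.4 CPM at 240 min, against 31.2, 23.6 and 12.3 CPM in air, a log2 fold change of 0.91 (SE 0.22, adjusted p = 0.0020 by edgeR with the block), and without it of 0.88 (SE 0.39, adjusted p = 0.11). MRPL31 (mL60) had the highest value without the block, 0.89 (SE 0.69, adjusted p = 0.43), and MRP35 was below MRPS8 with 0.84 (SE 0.94, adjusted p = 0.64). Without course 1, IMG2 and MRPS8 were called higher and MRPL15 lower at 2-fold, where 24.2% of all genes were called, and 9 passed without that minimum, where 44.1% did. With the block 10 passed without course 1, where 45.1% did, and 5 of these were among the 8. IMG2, the mL49 protein named for the integrity of the mitochondrial genome, had 36.7 and 17.3 CPM at 0 min and 58.7 and 63.6 CPM at 240 min in courses 2 and 3, but 54.1 and 57.1 CPM in course 1. The other gene of that name, IMG1, had a log2 fold change of -0.13 (SE 0.40, adjusted p = 0.91 by edgeR).

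Between 30 and 240 min the direction turned. This comparison uses the same libraries at 30 min as the rise from 0 min, so it is not independent of that rise. The median log2 change was -0.27 over the 69, with 9 above 0, and 0.00 over all tested genes. All 3 courses were lower at 240 than at 30 min in 37 of the 69 (53.6%), where 27.5% of all genes were, and all were higher in 1, where 27.8% were. The groups did not overlap in 9, all lower, against 24.2% of all genes in either direction. In the fit without the course 0 of the 69 passed by either tool, where 10.0% of all genes passed by edgeR and 12.8% by DESeq2, or 6.20% and 7.16% at 2-fold, and 8 had an unadjusted p under 0.05. With the block 14 passed, where 26.7% of all genes did. All 14 fell and 0 rose, where 12.5% of all genes fell and 14.2% rose. They were 6 large-subunit genes (MRPL8, MRPL10, MRPL23, MRPL38, MRPL49 and MRPL51) and 8 small-subunit genes (MRP10, MRP17, MRPS9, MRPS12, MRPS18, RSM10, RSM18 and RSM26). The fit with the block gave 15 without course 1, all lower, where 27.5% passed, and 13 of these were among the 14. It gave 6 and 4 without course 2 and course 3, all lower, where 14.5% and 15.1% of all genes passed. The fit without the block on courses 2 and 3 gave 12, all lower, where 26.2% passed, and MRP10, MRP17, MRPL49 and MRPS9 fell at least 2-fold, where 11.6% of all genes were called.

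MRP10 and MRP17 were the 2 called at 2-fold with the block, where 9.98% of all genes were. MRP10 encodes mS37, a small protein with paired cysteines in the manner of proteins of the intermembrane space. It had 24.9, 16.4 and 17.0 CPM at 30 min and 12.6, 5.48 and 4.16 CPM at 240 min, so the groups did not overlap. Its log2 change was -1.51 (SE 0.30, adjusted p = 0.00058 by edgeR with the block), and -1.39 without it (SE 0.54, adjusted p = 0.12). MRP17 had 24.3, 21.2 and 4.84 CPM at 240 min against 38.3, 26.9 and 42.8 CPM at 30 min, a log2 change of -1.24 (SE 0.36, adjusted p = 0.012 with the block) and -1.10 without it (SE 0.53, adjusted p = 0.24). At 240 min course 3 had the lowest value of MRP17. MRPL49 (bL21m) had -0.94 with the block (SE 0.29, adjusted p = 0.020 by edgeR). MRPL38 had -0.75 (SE 0.23, adjusted p = 0.017) with the block. MRPL31, MRPS35 (mS45) and MRPL7 (uL5m) had the highest values, 0.52, 0.25 and 0.18, and none of these passed.

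**Figure D4:**
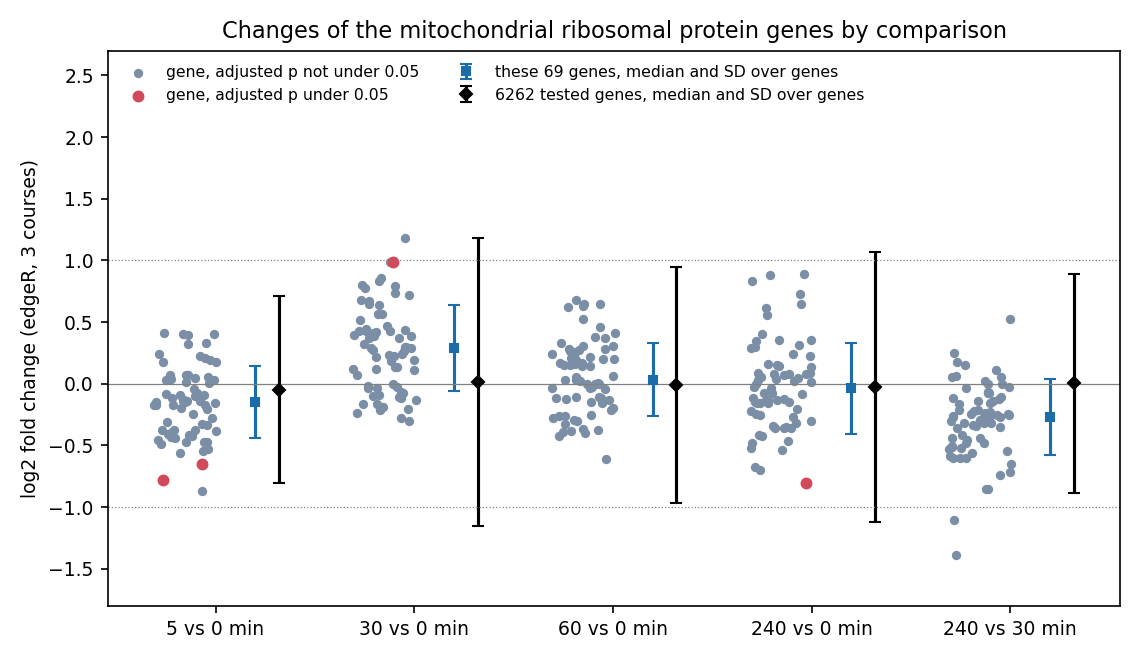
Each point is the log2 fold change of 1 of the 69 genes in 1 comparison, from the edgeR fit without the course on 3 courses, red where the adjusted p was under 0.05. Squares and diamonds with bars give the median and the SD over genes of the 69 and of the 6262 tested genes, and dotted lines mark 2-fold. The 69 have SDs of 0.29 to 0.37, and all tested genes SDs of 0.76 to 1.17.

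The medians of the subunits were close to each other. At 30 min the median was 0.29 in the large and 0.29 in the small subunit, and from 30 to 240 min -0.26 and -0.31. The genes with family names in u or b had medians of 0.30 at 30 min and -0.08 at 240 min, and those in m had 0.27 and -0.04. RSM22, the gene without the motif, had 61.5, 89.4 and 75.5 CPM at 0 min and 61.9, 68.9 and 80.8 CPM at 30 min, a log2 fold change of -0.10 (SE 0.17, adjusted p = 0.78 by edgeR). MRPL32 (bL32m), which the m-AAA protease of the inner membrane is known to mature, had 0.22 (SE 0.51, adjusted p = 0.85) at 30 min. MRP51 (bS1m) had -0.03 (SE 0.37, adjusted p = 0.98) and YML6 (uL4m) 0.29 (SE 0.32, adjusted p = 0.62).

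Genes of the cytosolic ribosome and of the respiratory chain had medians further from 0 in the same fit, on the lower side. These lists were written from knowledge of the pathways. Of all tested genes 25.7% passed at 30 min and 23.2% at 240 min, and with the block 45.4% and 43.5%. At 2-fold 17.8% and 15.6% of all genes were called in the fit without the course. The 138 cytosolic ribosomal protein genes had a median of -0.88 at 30 min and -0.87 at 240 min, and 60 and 53 of them fell and 0 rose. With the block 127 and 132 fell. Many of these are pairs of near-identical copies, so the values of single genes are uncertain. The 69 ribosome biogenesis genes had medians of -2.63 and -1.72, and 68 and 65 fell. The 24 respiratory chain genes had a median of -0.65 at 30 min and -2.53 at 240 min, where 16 fell at least 2-fold and 0 rose. The 28 stress-induced genes had medians of 4.16 and 2.36, and 27 and 23 rose at least 2-fold. The medians of the 69 mitochondrial ribosomal protein genes in the same fit were 0.29 and -0.04. The difference between lists was not tested.

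**Figure D5:**
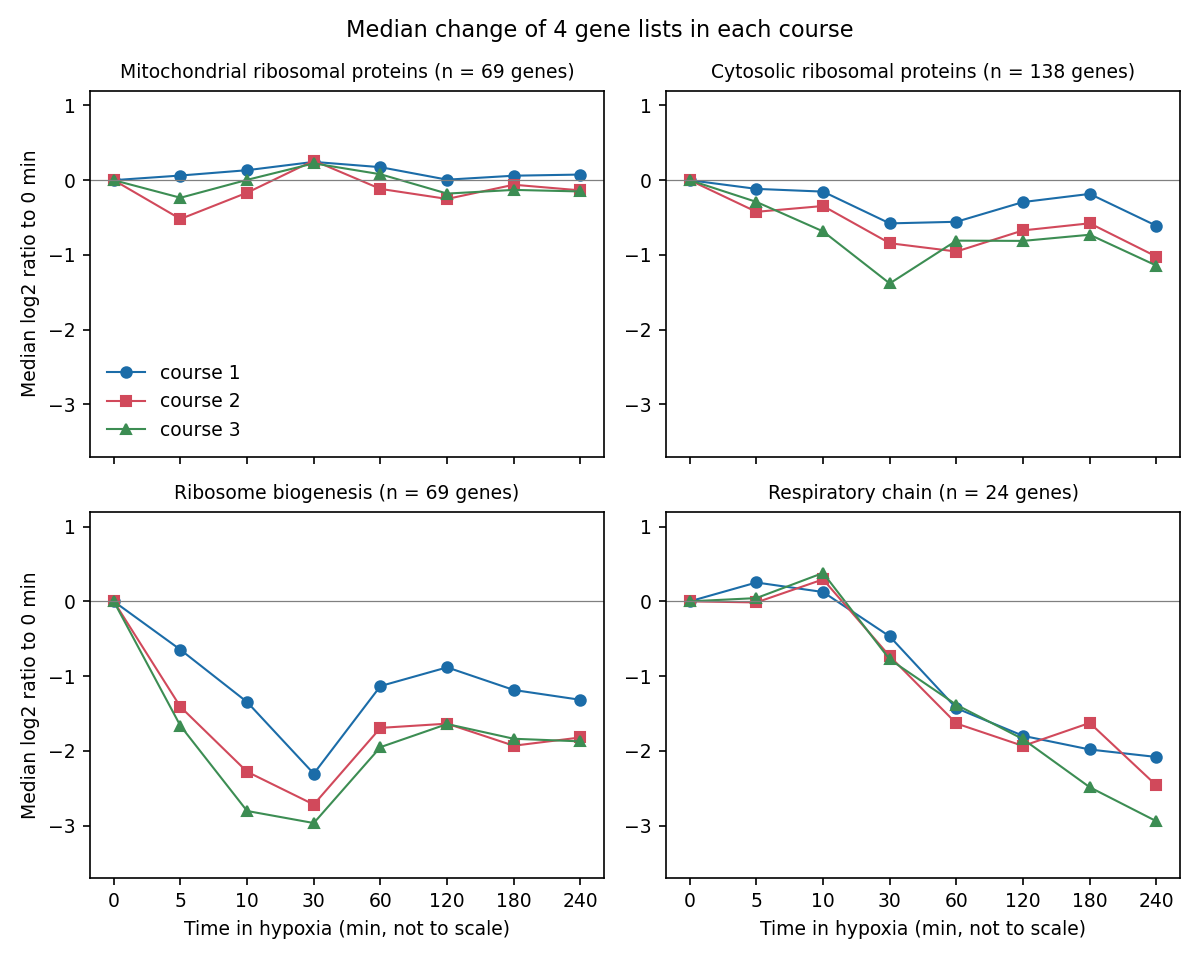
Each panel plots the median over the genes of 1 list of the log2 ratio of CPM to 0 min against the time in min, with 1 line for each of the 3 courses and the same vertical axis in all panels. The median of the mitochondrial ribosomal proteins lies between -0.52 and 0.26 in all courses, and those of ribosome biogenesis and the respiratory chain go below -2.

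Other genes of mitochondrial translation were read from lists of their own. Of all tested genes 25.7% passed an adjusted p under 0.05 by edgeR at 30 min and 23.2% at 240 min. Of the 11 further mitoribosomal proteins, 2 rose at 30 min in the fit without the course, SWS2 (log2 fold change 0.68, SE 0.19, adjusted p = 0.010 by edgeR) and PET123 (0.57, SE 0.16, adjusted p = 0.013), and 2 fell at 240 min, RML2 and MHR1 (-0.61 and -0.62). Their medians were 0.07 and -0.07. TUF1, the mitochondrial elongation factor that brings tRNAs to the ribosome, had 163, 177 and 193 CPM at 0 min and 248, 235 and 262 CPM at 30 min, without overlap, and rose by 0.48 (SE 0.14, adjusted p = 0.014 by edgeR). MEF1, the factor for translocation, had 59.8, 103 and 79.5 CPM at 0 min and 31.7, 45.9 and 36.0 CPM at 240 min, and fell by 1.09 on the log2 scale (SE 0.26, adjusted p = 0.0040 by edgeR). It was the 1 of 9 translation factors called at 2-fold at 240 min, where 15.6% of all genes were.

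Among the 17 genes for mitochondrial tRNA charging 3 rose and 1 fell at 30 min, where 25.7% of all genes passed. Their median was 0.43, and MSF1, the phenylalanyl-tRNA synthetase, rose by 1.11 (SE 0.21, adjusted p = 0.00044 by edgeR). With the block 9 rose and 1 fell, where 45.4% of all genes passed. Of the 17 translational activators 0 rose and 1 fell at 30 min, where 25.7% of all genes passed. From 30 to 240 min, where 10.0% of all genes passed, CBP6, which acts for cytochrome b, fell by 1.45 on the log2 scale (SE 0.43, adjusted p = 0.039 by edgeR). Of the 13 assembly and anchoring genes 0 rose and 3 fell at 30 min, where 25.7% of all genes passed.

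The messenger RNA for Puf3 itself did not pass in the fit without the course and fell with the block. PUF3 had 43.5, 112 and 71.1 CPM at 0 min and 43.7, 66.0 and 46.8 CPM at 240 min, a log2 fold change of -0.53 (SE 0.32, adjusted p = 0.28 by edgeR; with the block -0.47, SE 0.18, adjusted p = 0.035). HAP4, the activating subunit of the Hap complex for respiratory genes, rose from 41.6, 41.2 and 38.9 CPM at 0 min to 159, 257 and 399 CPM at 5 min (log2 fold change 2.74, SE 0.51, adjusted p = 0.0019 by edgeR). It fell to 20.8, 7.02 and 2.18 CPM at 240 min (-2.03, SE 0.51, adjusted p = 0.0062). HAP1, the heme-responsive activator, rose by 1.40 on the log2 scale at 240 min (SE 0.35, adjusted p = 0.0061 by edgeR). The 762 tested genes outside the 69 that carry TGTANATA after the stop codon had a median of 0.06 at 30 min and 0.01 at 240 min, and the 4889 without it had 0.00 and -0.03. In the mitochondrial genome, VAR1, which encodes the small-subunit protein made inside the organelle, had 0 to 12 counts per library with a median of 0, so its level was not measurable in these libraries of polyadenylated RNA.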

How the data were processed

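Polyadenylated RNA of 24 libraries was analysed, 8 times in each of 3 courses, grouped by the time in the labels. The deposited values are raw counts of reads per gene, from the authors' mapping to S. cerevisiae build R64 (TopHat2) and counting (HTSeq), whose versions are not given in the sources used here. The labels name a TruSeq RNA kit for all libraries and do not state whether counting used strand. Total counts per library were 4980240 to 16346113, and a gene of the 69 had a median of 154 to 573 counts per library. Summary lines of the counter were left out.

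Counts were fitted in R 4.3.3 with edgeR 4.0.16 (TMM, filterByExpr, quasi-likelihood F-test, 8 times as a factor, 16 residual degrees of freedom) on 6262 features. P-values were adjusted over all of them by the Benjamini-Hochberg method, and calls needed a value under 0.05 together with a change of 2-fold or more. All comparisons with 0 min share the 3 libraries of that time. Replicates are biological per the series' text. CPM are on TMM-scaled library sizes. RNA came from whole cultures, so a change in all cells and in some cells cannot be told apart, nor can changes in total RNA per cell be seen.

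Courses were checked for pairing by the correlation of deviations from the mean of each time. The 28 pairs of libraries of a course correlated at 0.777 to 0.913 for course 1, and the ranges for courses 2 and 3 were 0.565 to 0.728 and 0.498 to 0.736. Deviations from a mean of 3 courses cancel out, so the shift of course 1 enters the values of courses 2 and 3. The check thus shows that course 1 stands apart and cannot show whether courses 2 and 3 are paired. The fit with the course as a block (14 residual degrees of freedom) is given beside the results. Without course 1, 53.8% of all genes passed over time without the block and 55.2% with it. Alternatives were DESeq2 1.42.0, other scalings, no filter, no fold minimum, each course left out, and the quadratic test of the study on single courses. The scripts were tested on simulated data.

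The genes and the lists beside them were chosen with earlier results of these data known. Genes named were those called, the 3 highest and 3 lowest changes in each comparison, the 3 highest and lowest levels per kb, the 3 widest and narrowest ranges over time and 9 chosen for their roles. Outside this rule, MRPL38, MRPL44 and the genes listed from the fit with the block or without course 1 were named after their values were seen, as were MRPS12, MRPS8 at 240 min, SWS2, PET123 and the single genes of the other lists. Sequences came from RefSeq, build R64, by gene ID, and 6048 of the 7140 features have a name there.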

Additional observations from a re-analysis of the deposited data

How the results depend on the processing

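The calls depend mostly on how the course is handled. With at least a 2-fold change, the count over time went from 0 to 1 with DESeq2, 2 with the course as a block and 2 on course 1 alone, and from 0 to 8 over the courses left out in turn. The ranges when leaving out 1 course were 0 to 1 at 5 min, 0 to 9 at 30 min, 0 to 3 at 60 min, 0 to 3 at 240 min and 0 to 4 from 30 to 240 min of the 69, and each highest value came without course 1. At 30 min RLE factors, the total count, no filter and DESeq2 gave 1 each and the block 2, and from 30 to 240 min the block gave 2. For RLE factors, the total count and no filter the share of all genes called is not given. Those counts thus do not compare the 69 with all genes. Without the fold minimum the counts were 1 over time, 2 at 5 min, 1 at 30 min and 1 at 240 min, and with the block as well 20, 6, 16, 6 (60 min), 8 (240 min) and 14 (30 to 240 min).

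Those counts with the block were recomputed without each course, a choice made after seeing the data, and ranged from 2 to 21 over time, 0 to 11 at 5 min, 7 to 20 at 30 min, 1 to 8 at 60 min, 2 to 10 at 240 min and 4 to 15 from 30 to 240 min. Without course 2 the block passed 7.28% of all genes at 5 min, 20.5% at 60 min and 27.1% at 240 min. Without course 3 these shares were 10.2%, 26.2% and 33.8%. The median of the 69 at 30 min was 0.31 with RLE factors, 0.50 on the total count, 0.33 with no filter, 0.27 with the block and 0.25 to 0.33 over the courses left out, above 0 in each. Total-count scaling gave -0.02 (5 min, from -0.15), 0.35 (60 min) and 0.24 (240 min). From 30 to 240 min it was -0.33 to -0.23 over the courses left out. The log2 fold change at 30 min turned its sign for MRPL50 on the total count (0.017), and for RSM28 it was -0.38 to 0.059 over the courses left out, above 0 without course 2. The block changed no other call than those given. In the fits with the block left without a course, the residual spread rests on 2 libraries per time. Depth limits MRP35 most, with 1 read in 1 library.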
